A study of Mus musculus with 4 samples.

Results

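Relaxin family peptides are hormones of the insulin superfamily that act on G protein-coupled receptors, and 4 genes of this system, the receptor genes Rxfp1, Rxfp2 and Rxfp3 and the ligand gene Rln3, were followed through every cell type and neuronal cluster of a single-nucleus RNA sequencing experiment on the mouse posterior hindbrain. They are 4 of the 32285 genes counted and were chosen by name, with earlier results of these data known. The piece of hindbrain taken contains the area postrema (AP) and the nucleus tractus solitarius (NTS). Control mice, labelled WT, lacked both recombinases (-/- for AgRP-IRES-Cre and for POMC-Dre), whereas AgRP-Gq;POMC-Gi mice had 1 copy of each (+/-), and all mice carried the alleles hM3DGq fl/- and hM4DGi fl/-. In the second group Cre switched on the excitatory receptor hM3DGq in AgRP neurons and Dre the inhibitory receptor hM4DGi in POMC neurons. The study describes AgRP and POMC neurons of the arcuate nucleus of the hypothalamus, which is outside the tissue taken. Whether any cells of the hindbrain piece carried the receptors was not tested. All mice, males and females of 12 to 20 weeks, were given clozapine N-oxide (CNO), the agonist of both receptors, at 3 mg per kg intraperitoneally and were kept without food for 1 h. There were 2 libraries per group, and the methods of the study give 2 mice per group, with samples of a condition pooled. How the mice were divided between libraries is not given there.

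RXFP1 is the receptor of relaxin and RXFP2 that of insulin-like peptide 3 (INSL3). Both have a large extracellular part with leucine-rich repeats and couple mainly to the stimulatory G protein, which raises cyclic AMP. RXFP3 is the receptor of relaxin-3, the product of Rln3, and couples to inhibitory G proteins. In the brain, relaxin-3 is known from GABAergic projection neurons of the nucleus incertus in the pontine tegmentum, and it stimulates feeding in rats.

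The 4 libraries held 39461 nuclei that the authors kept, 9723 to 10051 per library, with 48904976 to 53089402 UMIs each. Of these nuclei 12539 were neurons, in 134 clusters, and they had a median of 8252 to 9624 UMIs per library. The share of neurons was 25.4% and 27.2% in control against 38.0% and 36.5% for AgRP-Gq;POMC-Gi. AgRP-Gq;POMC-Gi replicate 2 stood apart from the other libraries: Xist, a transcript of female cells, was at 16.2 CPM in its neurons and at 319 to 541 CPM in those of the others. Ddx3y, a gene of the Y chromosome, was at 39.3 CPM in its neurons and at 13.4 to 18.2 CPM in those of the others. CPM stands for the UMIs of a gene per 1000000 UMIs of all genes in the same nuclei, and 168 barcode sequences (0.428%) occurred in more than 1 library. Tests between groups measure the spread between libraries, which may be technical or between animals. The part of sex in it was not tested.

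The neuronal label held for the clusters described here. In the 16 clusters named for a relaxin family gene, the neuronal marker Rbfox3 was at 161 to 488 CPM and Snap25, a protein of synaptic vesicle release, at 394 to 994 CPM. Transcripts of other cell types were also present in them: the choroid plexus gene Ttr at 260 to 590 CPM and the myelin gene Mbp at 31.6 to 179 CPM. The part of such RNA in the values below was not tested, but the share of oligodendrocytes with a UMI of each gene is given beside them as the background.

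All 4 genes were sparse, and most of their UMIs were in neurons. Rxfp1 (ENSMUSG00000034009), which spans 96.3 kb on the minus strand of chromosome 3 at 79641611 to 79737880 of GRCm38, had 760 UMIs in neurons. In neurons of control replicates 1 and 2 it was at 5.99 and 4.88 CPM, and AgRP-Gq;POMC-Gi replicates 1 and 2 had 3.77 and 9.38 CPM. The groups overlapped, and the highest value was that of AgRP-Gq;POMC-Gi replicate 2. At least 1 UMI was found in 332 neurons (2.65%, exact Clopper-Pearson 95% interval 2.37 to 2.94). Among oligodendrocytes, which should lack the gene, 8 of 16816 had one (0.0476%), with a median depth of 2460 UMIs against 8704 for neurons. With every nucleus thinned to 800 UMIs the shares were 0.423% and 0.0119%. Such intervals cover counting error only.

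Outside neurons, Rxfp1 had UMIs in 5 of 13 cell types. In microglia, the nuclei labelled Tmem119.Immune, it was at 3.75 ± 2.37 CPM (SD, n = 4 libraries), the only level outside neurons above 1 CPM. That value rested on 7 UMIs in 6 of 969 nuclei (0.619%, interval 0.228 to 1.34), spread as 1, 2, 3 and 1 UMIs over the 4 libraries. The interval lay above that of oligodendrocytes (0.0205 to 0.0937%), although microglia had the lower median depth of 1871 UMIs. The precursor cells labelled OPC, mural cells, astrocytes and oligodendrocytes followed at 0.569, 0.467, 0.275 and 0.166 CPM, with 1 to 8 UMIs each.

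Rxfp2 (ENSMUSG00000053368), on the plus strand of chromosome 5 at 150018675 to 150082184, had 186 UMIs in 117 neurons (0.933%, interval 0.772 to 1.12). Its neuronal level was 1.19 and 1.39 CPM in control replicates, against 1.69 and 1.59 CPM for the AgRP-Gq;POMC-Gi replicates. Outside neurons it had 6 UMIs in 5 cell types, and 2 of 16816 oligodendrocytes (0.0119%) carried one. The antisense gene Gm42557 overlaps the end of Rxfp2 at 150067258 to 150082795 and had 80 UMIs in neurons, and 27 neurons carried UMIs of both.

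Rxfp3 (ENSMUSG00000060735) has 1 exon of 4.28 kb on the minus strand of chromosome 15 at 11033717 to 11037991. It had 66 UMIs in 63 neurons (0.502%, interval 0.386 to 0.642), at 0.596 and 0.510 CPM in control replicates against 0.534 and 0.482 CPM for AgRP-Gq;POMC-Gi. Per kb of gene span, Rxfp3 in neurons was at 0.124 ± 0.0113 CPM, Rxfp1 at 0.0624 ± 0.0252 and Rxfp2 at 0.0230 ± 0.00346 (SD, n = 4). This order of the 3 receptors differed from that by CPM. Counts came from a 3′ kit and whether introns were counted is not given, so the receptors are not ranked by this scale. In oligodendrocytes 6 of 16816 nuclei (0.0357%) had a UMI of Rxfp3. After thinning to 800 UMIs the interval of its share in neurons (0.0224 to 0.115%) overlapped that of oligodendrocytes (0.00144 to 0.0430%).

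Rln3 (ENSMUSG00000045232) is a gene of 2 exons on the minus strand of chromosome 8 at 84042929 to 84045000. It had 25 UMIs in 5 neurons, that is, 0.819 and 0 CPM in control replicates against 0.0562 and 0.0283 CPM for AgRP-Gq;POMC-Gi. Its share of neurons, 0.0399% (interval 0.0129 to 0.0930), overlapped that of oligodendrocytes, 0.0119% (interval 0.00144 to 0.0430), and was read as background apart from 1 nucleus described below.

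Rxfp1 was concentrated in a few clusters of neurons. It had no UMI in 78 of the 134 neuronal clusters, and 4 clusters held 50% of its UMIs. Clusters are named after their number and 2 genes in the authors' annotation, and those named here were the leading ones by mean CPM, of those in which every library had 5 or more nuclei and the gene had 10 or more UMIs. The 8 clusters so chosen for Rxfp1 held 533 of its 760 UMIs (70.1%) and 751 neurons (5.99%). Since clusters were made from expression and ranked by it, these levels are a description.

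The highest level was in 146: Rxfp1/Ebf2, a cluster of 58 nuclei in which 53.4% (interval 39.9 to 66.7) had an Rxfp1 UMI. Such shares depend on depth: with nuclei thinned to 2000 UMIs they were 24.6% in cluster 146 and 12.8%, 16.7% and 8.24% in the next 3 clusters, 117, 151 and 38. In cluster 146 control libraries had Rxfp1 at 124 and 528 CPM, and AgRP-Gq;POMC-Gi had 286 and 317 CPM. The control libraries, of 9 and 8 nuclei, were the lowest and the highest.

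In 117: Ebf2/Nmu (81 nuclei, 37.0% with a UMI) the levels of Rxfp1 were 157 and 86.7 CPM in control against 167 and 148 CPM for AgRP-Gq;POMC-Gi. In 151: Lhx2/Reln (54 nuclei, 42.6% with a UMI) they were 141 and 75.0 against 84.1 and 189 CPM, and this cluster held the neuron with most Rxfp1 UMIs, 18. In 38: Kcnh8/Maf (183 nuclei, 34.4% with a UMI) they were 67.7 and 96.2 against 34.0 and 78.4 CPM. Values of the groups interleaved in each of these 3 clusters, in cluster 151 through that 1 neuron: without it control replicate 1 was at 26.8 CPM, and both control values lay below those of AgRP-Gq;POMC-Gi.

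The other 4 clusters were lower, with means of 23.1 to 32.6 CPM and 6.56 to 14.9% of nuclei with a UMI. In 41: Ryr1/Tfap2b (168 nuclei) Rxfp1 was at 25.2 and 29.4 CPM in control against 42.6 and 33.2 CPM for AgRP-Gq;POMC-Gi, and 16.4% of all genes with at least 10 UMIs there had every AgRP-Gq;POMC-Gi value above control. In 155: Kcnh8/Arhgap6 and 105: Ebf2/Calb1 it was lower in both AgRP-Gq;POMC-Gi libraries (0 and 25.3 CPM, 6.15 and 20.5 CPM) than in either control library (33.2 and 55.8 CPM, 59.7 and 27.9 CPM), an arrangement found for 16.5% and 16.3% of genes in these clusters. Without the 1 neuron with most UMIs in cluster 105, which had 4, control replicate 1 was at 13.0 CPM there and the groups overlapped. In 140: Fgf10/Cpne4 it was found in 1 library of each group, at 62.3 and 30.1 CPM.

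Neighbours in this order did not separate clearly. Cluster 146 exceeded 117 by 174 ± 198 CPM (SD of the difference within libraries) and in 3 of 4 libraries, 117 exceeded 151 by 17.4 ± 50.9 CPM, and 151 exceeded 38 by 53.3 ± 55.6 CPM. The step from 38 to 41, 36.5 ± 32.0 CPM in 3 of 4 libraries, was the only one larger than its SD. From 41 to 140 the steps were at most 5.44 CPM, with SDs of 22.7 to 43.3 CPM.

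**Figure D1:**
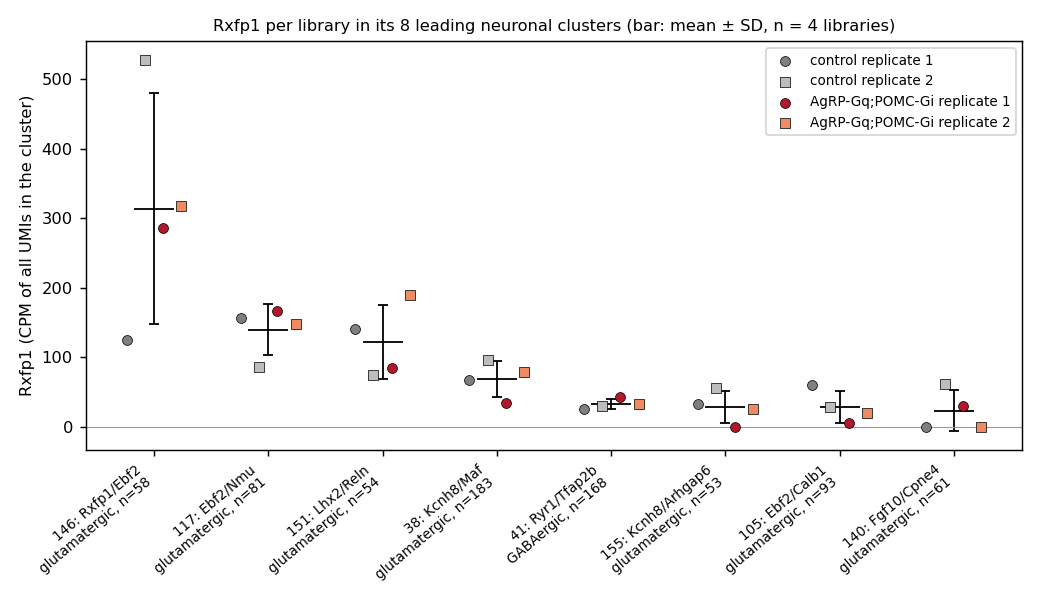
CPM of Rxfp1 in each library (points; grey, control; red and orange, AgRP-Gq;POMC-Gi) in its 8 leading neuronal clusters, with the mean ± SD of the 4 libraries as bars and the transmitter class and number of nuclei under each name. Means fall from 314 CPM in cluster 146 to 23.1 CPM in cluster 140, and the spread between libraries is widest in cluster 146.

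Of the 8 clusters, 7 were glutamatergic by the vesicular transporter Slc17a6 and 1, cluster 41, was GABAergic by Slc32a1. A cluster was assigned to one of these classes where the CPM of its transporter was at least 4-fold that of the other. With a limit of 10-fold all 8 glutamatergic clusters among those named for the 4 genes kept their class, while 6 of the 8 GABAergic ones, clusters 41, 55, 67, 75, 81 and 83, became mixed. Ebf2, a transcription factor gene, is in the name of 3 of the 8 clusters and of 11 of all 134, and was at 1289, 1050 and 719 CPM in clusters 146, 117 and 105 and at 271 and 255 CPM in clusters 38 and 155. It was at 61.2 CPM in cluster 140, and clusters 151 and 41 had 1.40 and 0.969 CPM. Rxfp1 was thus found beside high Ebf2 and, in clusters 151 and 41, with almost none.

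Among single neurons, Rxfp1 reached counts of up to 18, whereas no oligodendrocyte had more than 1. Of the 332 neurons with a UMI, 181 had 1, 92 had 2 or 3, 52 had 4 to 9 and 7 had 10 or more. Mean counts in nuclei with a UMI were 3.55 in cluster 146, 4.96 in cluster 151 and 2.14 in cluster 38. Rxfp2 reached 4 or more UMIs in 3 neurons, and Rxfp3 never exceeded 2. For Rln3, 4 neurons had 1 UMI and 1 had 21.

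**Figure D2:**
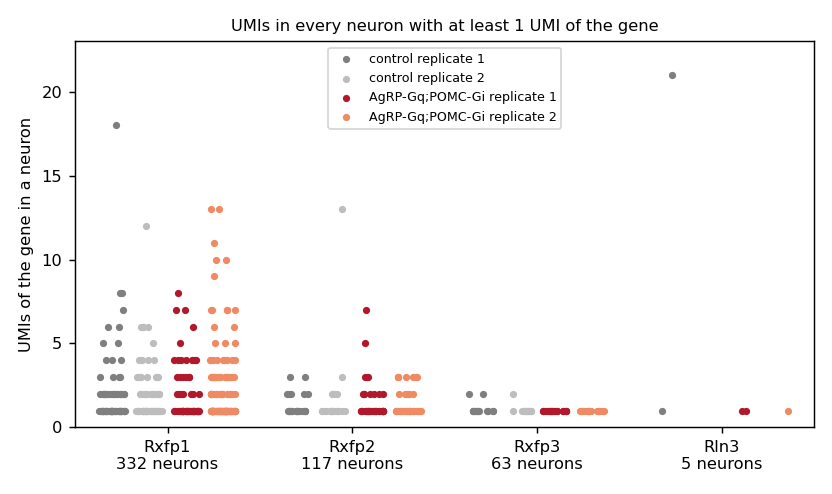
UMIs of each gene in every neuron that had at least 1 (points, by library; the points are spread sideways within a library). Rxfp1 has many neurons above 3 UMIs in all libraries, whereas the highest values of Rxfp2 and Rln3, 13 and 21, are single neurons of control libraries.

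The mean level of each receptor differed between the transmitter classes, though few clusters carried much of it. The 8 leading clusters of Rxfp1, 7 of them glutamatergic, held 70.1% of its neuronal UMIs. The 6 of Rxfp2, 5 of them GABAergic, held 58.1%. Rxfp3 had 66 UMIs, with 1 to 3 in 28 of its 32 clusters. The class levels below therefore do not describe every cluster of a class. Over the 69 glutamatergic clusters Rxfp1 was at 10.6 and 8.12 CPM in control against 5.81 and 16.2 CPM for AgRP-Gq;POMC-Gi, and over the 46 GABAergic clusters at 1.46 and 1.54 against 2.18 and 2.34 CPM. The glutamatergic level was higher in 4 of 4 libraries, with means of 10.2 ± 4.46 and 1.88 ± 0.447 CPM. Rxfp2 and Rxfp3 had the opposite order in 4 of 4 libraries: Rxfp2 was at 0.743 ± 0.338 CPM in glutamatergic and 2.53 ± 0.935 CPM in GABAergic clusters, and Rxfp3 at 0.248 ± 0.0960 and 0.956 ± 0.152 CPM. Rln3 had no UMI in 6201 glutamatergic neurons, where 3 counts would be a share of 0.0484%, and 23 UMIs in 3 of 4933 GABAergic neurons. The classes come from clusters made from the same nuclei, so no test was made.

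Between groups, the levels of Rxfp2 lay apart in opposite directions in the classes, on the glutamatergic side through 1 nucleus. In GABAergic clusters it was at 1.92 and 1.54 CPM in control against 3.31 and 3.34 CPM for AgRP-Gq;POMC-Gi, and in glutamatergic clusters at 0.755 and 1.21 against 0.570 and 0.436 CPM. Of all genes with at least 10 UMIs, 34.8% in GABAergic and 35.9% in glutamatergic clusters had groups that did not overlap, 11.6% and 23.9% in the direction of Rxfp2. Without the 1 nucleus with 13 UMIs the glutamatergic values were 0.755 and 0.285 against 0.570 and 0.436 CPM and overlapped. Rxfp1 in GABAergic clusters was likewise higher in both AgRP-Gq;POMC-Gi replicates, and Rxfp3 in glutamatergic clusters lower.

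**Figure D3:**
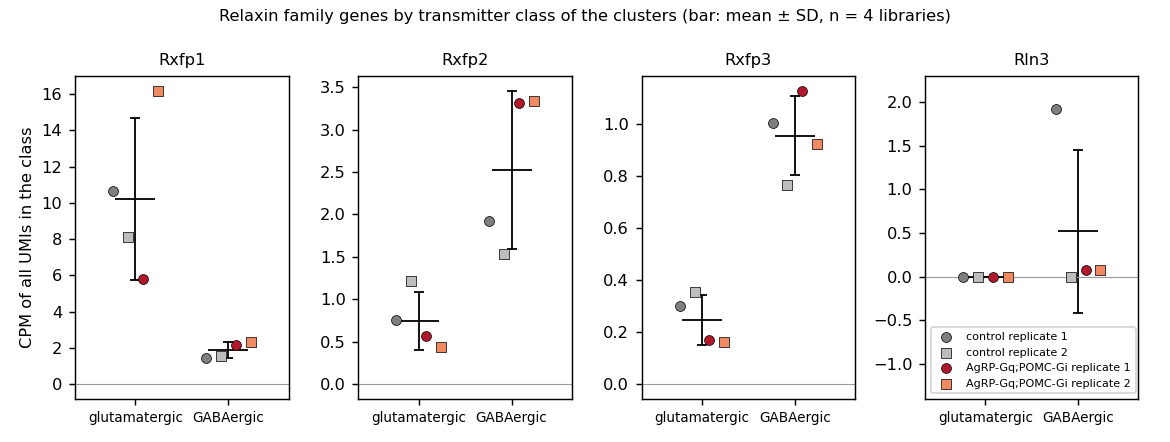
CPM of the 4 genes in glutamatergic and GABAergic clusters in each library (points), with the mean ± SD of the 4 libraries as bars and a scale of its own for each gene. Rxfp1 lies higher in glutamatergic clusters, Rxfp2 and Rxfp3 in GABAergic ones, and Rln3 is carried by control replicate 1.

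Rxfp1 had enough UMIs (at least 200) for a search for genes with a like pattern over the 120 neuronal clusters with 5 nuclei in each library. By Pearson's r of log2(CPM + 1), the nearest of 15469 genes were Sntb1 (r = 0.50), which codes for a syntrophin of the dystrophin complex, Colgalt2 (0.46), a collagen galactosyltransferase, Plekha5 (0.46), Gphn (0.45), which codes for the inhibitory synapse scaffold gephyrin, and Cfap69 (0.44). Without the 2 clusters highest in Rxfp1 these values fell to between 0.25 and 0.39. The clusters share libraries and differ in depth, and in counts this sparse a weak correlation is no finding.

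Sntb1, the nearest of them, ranked 1, 3 and 5 among the 120 clusters in clusters 146, 117 and 38, at 661, 340 and 297 CPM, against a median of 3.85 CPM. In cluster 41 it was at 1.74 CPM, and in clusters 151, 155 and 105 at 17.9 to 25.5 CPM. Plekha5, Gphn and Cfap69 were likewise highest of all in cluster 146. These genes were picked for their match to Rxfp1 over the same clusters. High levels in its leading clusters follow from that choice and are no support for a link.

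**Figure D4:**
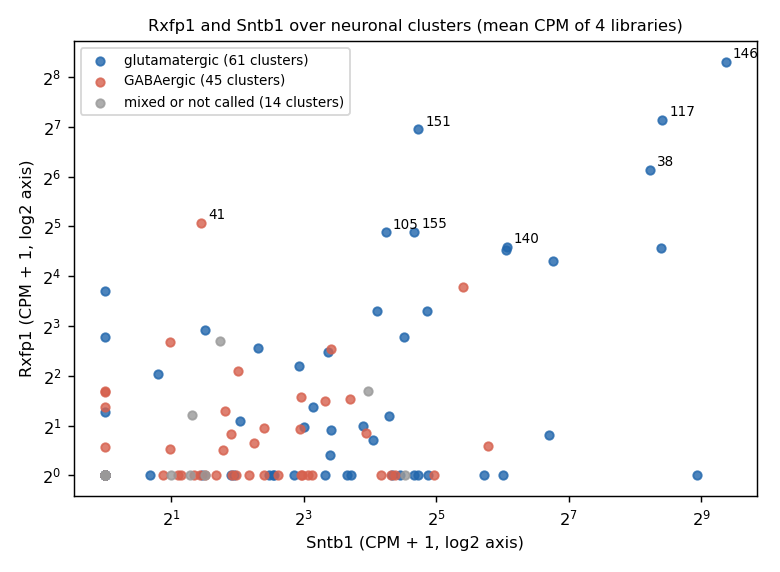
Mean CPM + 1 of Rxfp1 against that of Sntb1 in 120 neuronal clusters (points, coloured by transmitter class; log2 axes), with the 8 leading Rxfp1 clusters numbered. Clusters 146, 117 and 38 are high in both genes, while cluster 41 has Rxfp1 with little Sntb1, and many clusters with Sntb1 have no Rxfp1. Sntb1 was picked for its match to Rxfp1 over these same clusters.

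Rxfp2 was spread more thinly. It had no UMI in 99 of 134 neuronal clusters, and its 6 leading clusters held 108 of 186 UMIs (58.1%). All but the last of them, cluster 68, were GABAergic by Slc32a1 and carried Slc6a5, the glycine transporter, at 146 to 200 CPM. The class name thus does not set them apart from glycine neurons. With the 10-fold limit clusters 55, 81 and 83 were mixed. The 5 clusters were 119: Npas1/Nell1, 81: Gbx1/Fgf10, 125: Otof/Stac, 55: Rab38/Ano1 and 83: Agtr1b/Cntnap5b.

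In cluster 119 (77 nuclei) Rxfp2 was at 73.5 and 6.70 CPM in control against 12.3 and 19.4 CPM for AgRP-Gq;POMC-Gi, the first of these values from 4 UMIs. In cluster 81 (114 nuclei) it was at 15.7 and 22.5 against 34.9 and 9.34 CPM, and in cluster 125 (74 nuclei) at 0 and 20.0 against 5.96 and 41.5 CPM. The groups overlapped in all 3 clusters. None of the 5 steps between neighbours in the order of the 6 clusters exceeded its SD within libraries.

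In 2 clusters Rxfp2 UMIs came almost wholly from AgRP-Gq;POMC-Gi libraries. In cluster 55 there were 0 and 0 UMIs in 22 and 19 control nuclei, and 13 and 7 UMIs in 42 and 66 AgRP-Gq;POMC-Gi nuclei, that is, 0 and 0 against 39.7 and 11.7 CPM. With 3 counts over the control group as the floor, the pooled level was at least 3.01-fold higher in AgRP-Gq;POMC-Gi. For 0 of 41 control nuclei the same 3 counts give a share of 7.32%, beside 9 of 108. That bound lies below the upper limit of the exact interval used for other shares, and nothing is read from it. Values of AgRP-Gq;POMC-Gi wholly above control were found for 17.8% of genes in cluster 55 and for 14.0% in cluster 83. In cluster 83, 18 and 26 control nuclei had 1 and 0 UMIs and 40 and 29 AgRP-Gq;POMC-Gi nuclei had 11 and 4, that is, 6.58 and 0 against 28.8 and 12.7 CPM, a pooled ratio of 8.79 with an exact counting interval of 1.35 to 370. These pooled values count UMIs as independent and do not cover the spread between libraries. The 20 UMIs of cluster 55 were in 9 nuclei and the 15 of cluster 83 in 7, and nuclei of the same library are not replicates. Both clusters also met the UMI limit for a named cluster only through the AgRP-Gq;POMC-Gi nuclei. The 3.01-fold bound, the interval and the numbers of nuclei were taken from the same selected counts, so none of them is support for a difference.

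Neither difference passed the test across all genes, which Rxfp2 entered in both clusters only through the AgRP-Gq;POMC-Gi nuclei, so these p-values are no support for a difference. In cluster 55 the unadjusted p of edgeR's quasi-likelihood test was 0.00163 and the adjusted p 0.689, with adjusted p-values of 0.115 to 1.00 over the alternatives. In cluster 83 the log2 fold change was 3.01 ± 1.12 (SE), with an adjusted p of 0.662. Without AgRP-Gq;POMC-Gi replicate 1, the mean level over the remaining libraries fell from 12.9 to 3.92 CPM in cluster 55 and from 12.0 to 6.42 CPM in cluster 83.

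Cluster 68, 68: Klhl1/Tafa1, glutamatergic, had the opposite pattern, with 2 and 14 Rxfp2 UMIs in control and none in the other group (9.01 and 30.6 CPM against 0 and 0), an arrangement found for 21.7% of genes there. Of the 16 UMIs, 13 (81.3%) were in 1 nucleus of control replicate 2, which had 12609 UMIs in all. Without it 3 UMIs were left. With 2.29% of nuclei carrying a UMI, Rxfp2 did not enter the test there, and with no filter on genes its adjusted p of 0.0219 by edgeR rested on that nucleus.

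Rxfp3 was scattered, with 1 to 3 UMIs in 28 of the 32 clusters in which it was found. Only 75: Qrfprl/Baiap3, a GABAergic cluster of 121 nuclei, had 10 or more. It held 11 of the 66 UMIs, each in a nucleus of its own, at 19.4 and 10.1 CPM in control against 5.71 and 11.2 CPM for AgRP-Gq;POMC-Gi. The groups overlapped, with 3, 2, 2 and 4 UMIs in the 4 libraries. The highest mean level, 27.3 ± 31.9 CPM, was in 171: Otof/Gbx1, a cluster with only 4 nuclei in each control library, in which 5 of 42 nuclei had 1 UMI each.

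Rln3 was carried by 1 neuron. That nucleus, of control replicate 1 and cluster 67: Foxp2/Il1rapl2, held 21 of the 25 neuronal Rln3 UMIs (84.0%), which gave its library 60.8 CPM in this cluster of 132 nuclei against 0 CPM in the other 3 libraries. With no filter on genes edgeR called Rln3 in this cluster, with an adjusted p of 0.00196 that rested on this nucleus. Its 25598 UMIs included 90 of Snap25 and 7 of Rbfox3. It had 19 UMIs of Gad2 and 1 of Gad1, which code for the enzymes that make GABA, none of the transporters Slc17a6 and Slc32a1, and 4 of Crhr1, the receptor of corticotropin-releasing hormone known from relaxin-3 neurons. It had no UMI of Foxp2, the first gene in the name of its cluster, nor of Htr1a, Calb2 or Cck, other genes listed for nucleus incertus neurons. The remaining Rln3 neurons had 1 UMI each, 2 of them in cluster 116: Prph/Slc5a7 and 1 each in 33: Il1rapl2/Slc6a5 and 59: Kcnmb2/Sema3a.

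**Figure D5:**
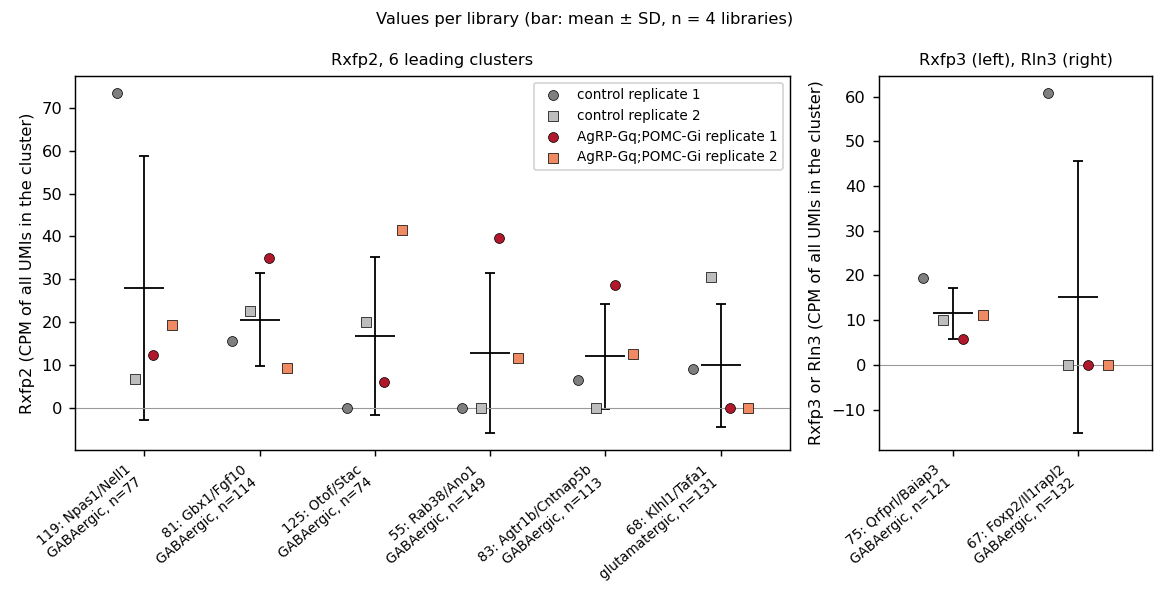
CPM per library (points) of Rxfp2 in its 6 leading clusters and of Rxfp3 and Rln3 in their leading cluster, with the mean ± SD of the 4 libraries as bars. Both control libraries are at 0 for Rxfp2 in cluster 55, both AgRP-Gq;POMC-Gi libraries are at 0 in cluster 68, and the Rln3 value is from control replicate 1 alone.

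The 4 genes were hardly ever seen in the same neuron. Of 332 neurons with Rxfp1 and 117 with Rxfp2, 2 had both, where 1.70 would be expected if detection were independent within clusters. Rxfp1 and Rxfp3 shared no neuron (0.703 expected), Rxfp2 and Rxfp3 shared 1 (1.36 expected), and 1 neuron of cluster 116 had 1 UMI each of Rxfp1 and Rln3. Counts this low leave both more and less overlap than these possible.

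The remaining ligands and the fourth receptor of the family were also sparse. Rxfp4, the receptor of insulin-like peptide 5, had no UMI in 12539 neurons or any other nucleus, and Insl3, the ligand of RXFP2, had 2 UMIs, neither in a neuron. Rln1, which codes for relaxin, the ligand of RXFP1, had 40 UMIs in 40 neurons (0.319 ± 0.0807 CPM), each neuron with 1, and 6 of 16816 oligodendrocytes (0.0357%) had one. Insl6 had 67 UMIs in neurons (0.548 ± 0.123 CPM) and was higher in oligodendrocytes, at 1.52 ± 0.582 CPM. Insl5, the ligand of RXFP4, was at 3.14 ± 0.585 CPM in neurons, with 392 UMIs in 379 nuclei. It was found in 43 of 773 choroid plexus nuclei (5.56%), against 3 of 16816 oligodendrocytes (0.0178%). Control replicate 1 and AgRP-Gq;POMC-Gi replicate 1 held only 2 and 6 of the 773.

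The comparison of the groups asks whether the genes differed between mice with both designer receptors and control mice, all 1 h after CNO. No library was from mice given vehicle. A response to CNO thus cannot be told apart from a standing difference between the genotypes. In all neurons together, none of the 4 genes was found in the 5% of nuclei required to enter the test, in which 0 of 12115 genes (0%) were called by edgeR. With no filter on genes edgeR gave log2 fold changes of 0.32 ± 0.35 (SE) for Rxfp1, 0.41 ± 0.24 for Rxfp2, -0.055 ± 0.36 for Rxfp3 and -3.08 ± 1.48 for Rln3, the last resting on 1 nucleus, with adjusted p-values of 0.867 to 0.979. At an unadjusted p under 0.05 the filtered test had 667 genes, and DESeq2 called 10. The edgeR count rests on which libraries enter: it was 2017 without AgRP-Gq;POMC-Gi replicate 2, and 3, 17 and 29 without control replicate 1, control replicate 2 and AgRP-Gq;POMC-Gi replicate 1. An exact permutation test of 2 against 2 libraries cannot give a two-sided p below 0.333.

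For Rxfp1 in neurons the means were 5.44 ± 0.784 CPM for control and 6.57 ± 3.97 CPM for AgRP-Gq;POMC-Gi, a log2 ratio of 0.27 that became -0.53 without AgRP-Gq;POMC-Gi replicate 2. In that library the 8 leading Rxfp1 clusters made up 8.91% of neurons, against 5.18% and 4.31% in control and 4.90% in the first AgRP-Gq;POMC-Gi replicate. Within those clusters Rxfp1 was at 86.5 CPM there and at 69.8, 85.7 and 60.8 CPM in the other libraries, and outside them at 2.20 CPM against 2.85, 1.59 and 1.20 CPM. More neurons of a type and more RNA per neuron cannot be told apart in the level over all neurons. The part of this share of clusters in the difference was not tested.

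Rxfp2 in neurons was higher in both AgRP-Gq;POMC-Gi libraries (1.64 ± 0.0698 CPM) than in both control libraries (1.29 ± 0.137 CPM), a log2 ratio of 0.35. Groups that do not overlap were found for 36.8% of the 22919 genes with at least 10 UMIs in neurons, and in this direction for 12.2%. Without the 1 neuron with 13 UMIs, control replicate 2 was at 0.912 CPM. The means of Rxfp3 were 0.553 ± 0.0603 CPM for control and 0.508 ± 0.0368 CPM for AgRP-Gq;POMC-Gi, and the groups overlapped.

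Within clusters, 15 pairs of gene and cluster entered the test, 8 of Rxfp1, 5 of Rxfp2 and 2 of Rxfp3, and none was called by edgeR, while 64 of 160234 tests of all genes in these 14 clusters (0.0399%) were. By cluster the share of genes called was 0% in 38 and 41, 0.00788% in 151, 0.0172% in 119, 0.0251% in 83, 0.0253% in 81, 0.0348% in 55 and in 155, 0.0484% in 117, 0.0505% in 140, 0.0669% in 146, 0.0763% in 125, 0.0888% in 75 and 0.0953% in 105. Unadjusted p-values under 0.05 were found for 3 of the 15 pairs, Rxfp2 in clusters 55 and 83 and Rxfp1 in cluster 140, and for 4.65% of all tests in these clusters. Nothing is read from this count, since each of the 3 met the 5% of nuclei only through the group in which it was higher (for Rxfp1 in cluster 140, 3 of 24 control and 1 of 37 AgRP-Gq;POMC-Gi nuclei). DESeq2 called none of the 15. For Rxfp1 the log2 fold change was above 0 in 4 clusters and below 0 in 4. Cluster 146 had 0.11 ± 0.40 (SE), 117 had 0.39 ± 0.42, 151 had 0.52 ± 0.40 and 38 had -0.30 ± 0.32, with adjusted p-values of 0.949 to 1.00 from edgeR. For cluster 146 the 95% interval by the normal approximation to the fitted value ran from -0.68 to 0.89.

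Of the 16 named pairs of gene and cluster, the groups did not overlap in 6 (37.5%), 3 with AgRP-Gq;POMC-Gi above control and 3 below. Over all genes with at least 10 UMIs in the same clusters the share was 34.1%, 15.6% above and 18.5% below. The share for the relaxin family genes was near this background, and it depends on single neurons: without the neuron with most UMIs of each pair, the groups of Rxfp1 in cluster 151 and of Rxfp2 in cluster 81 no longer overlapped, and those of Rxfp1 in cluster 105 did. In cluster 140 the log2 fold change of Rxfp1, -1.86 ± 0.88 (unadjusted p = 0.0342, adjusted p = 0.998 by edgeR), rested on 11 UMIs of control replicate 2 and became 3.96 without that library.

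None of the listed genes of signalling downstream of these receptors was called either. Of 26 genes of cyclic AMP signalling, 25 were tested in all neurons and none was called, with a median log2 fold change of -0.039 against -0.000294 for all genes tested. The most abundant were the phosphodiesterase genes Pde4d (1885 ± 128 CPM), Pde10a (744 ± 37.0 CPM) and Pde4b (636 ± 33.6 CPM), which break down cyclic AMP, and Gnas (702 ± 44.8 CPM), which codes for the stimulatory G protein. Their log2 fold changes were 0.14 ± 0.13, 0.13 ± 0.093, -0.0066 ± 0.10 and -0.039 ± 0.089 (SE), with adjusted p-values of 0.815 to 0.992 from edgeR. In the 16 named clusters 0 of 399 tests of these genes were called, with 18 above and 14 below 0 at an unadjusted p under 0.05, 8.02% of these tests against 4.70% of those of all genes in the same clusters.

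Of other leucine-rich repeat receptors related to RXFP1 and RXFP2, Lgr4 and Lgr5 were at 58.1 ± 2.34 and 42.4 ± 2.91 CPM in neurons, and the thyrotropin receptor gene Tshr and the follitropin receptor gene Fshr at 6.64 ± 1.43 and 2.53 ± 0.303 CPM. Lgr4 and Lgr5, the 2 of 6 that were tested, had log2 fold changes of -0.030 ± 0.078 and 0.052 ± 0.11. Of the nucleus incertus genes, Crhr1 was at 16.4 ± 1.80 CPM, Calb2 at 13.5 ± 3.87, Cck at 12.2 ± 3.08 and Htr1a at 1.69 ± 0.322 CPM, and none of the 3 tested was called. The 3 had log2 fold changes of -0.15 ± 0.11, -0.47 ± 0.20 and 0.25 ± 0.22. Among the immediate early genes listed in the study, which mark recent activity, 6 of 10 were tested in all neurons and none was called. Their median log2 fold change was 0.17. Fos, Gem, Nr4a3 and Fosl2 were not tested, since 4.23%, 3.34%, 1.84% and 1.64% of neurons had a UMI, under the 5% required. The result therefore does not cover Fos. The most abundant were Homer1, 1700016P03Rik, Btg1 and Nr4a1, with log2 fold changes of 0.067 ± 0.087, 0.56 ± 0.13, 0.27 ± 0.093 and 0.28 ± 0.18 and adjusted p-values of 0.810 to 0.874 from edgeR. These SEs were derived from the test statistic, and a fold change over its SE is not the test that gave the p-values. In the 16 named clusters there were 31 tests of the leucine-rich repeat receptors, 28 of the nucleus incertus genes, 92 of the immediate early genes and 1 of the family's ligands, and none was called. At an unadjusted p under 0.05 there were 9.68% of the tests of the leucine-rich repeat receptors, 7.14% of those of the nucleus incertus genes and 12.0% of those of the immediate early genes (8 above and 3 below 0), against 4.70% for all genes.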

How the data were processed

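Nuclei were sequenced with the 10x Genomics Chromium 3′ kit, and the authors obtained UMI counts with Cell Ranger 7.0.0 on GRCm38, processed them with Seurat 4.3.0, and deposited count matrices and a table of nuclei with clusters, cell types and a quality flag. Their methods describe removal of nuclei of low depth or high mitochondrial RNA and detection of doublets, and only nuclei that passed their flag were used. Whether introns were counted, and the strand setting, are not given in the sources used here.

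UMIs were summed per library and cluster, cell type or class and divided by all UMIs of these nuclei (CPM). Groups were compared with edgeR 4.0.16 (quasi-likelihood, TMM factors, R 4.3.3) for each gene that 5% of nuclei carried, with Benjamini-Hochberg adjustment at 0.05. The SE beside an edgeR log2 fold change is its absolute value divided by the square root of the quasi-likelihood F statistic. The p-value also depends on the degrees of freedom, so the ratio of a fold change to this SE is not a test. DESeq2 1.42.0 was an alternative. Gene positions are from GENCODE on GRCm38. Named clusters had at least 10 UMIs of a gene, at most 8 per gene. The genes named were the 4 genes, the 4 most abundant of each list, list genes that were called and the 5 nearest in pattern to Rxfp1. The 4 genes and the lists were chosen with earlier results of these data known. Python 3.11.15, numpy 2.4.6, pandas 2.3.3, scipy 1.17.1 and matplotlib 3.10.9 were used.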

Additional observations from a re-analysis of the deposited data

Results flagged for a closer look

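In groups of 2 libraries no sample can be tested as an outlier. The following values are listed because all AgRP-Gq;POMC-Gi libraries lay on one side of control in one cluster or class and on the other side in another, and the difference between clusters or classes was not tested. Rxfp1 differed between the groups, as AgRP-Gq;POMC-Gi minus control mean CPM, by 10.6 in cluster 41, by -30.5 in cluster 105 and by -31.9 in cluster 155, where 12 to 49 UMIs lie behind each value, and in cluster 105 the groups overlapped without 1 neuron. Rxfp2 differed by 25.7 CPM in cluster 55 and by 17.4 in cluster 83, but by -19.8 in cluster 68, where 13 of 16 UMIs were in 1 nucleus. These are the 6 of 16 named pairs whose groups did not overlap (37.5%), near the 34.1% found for all genes with at least 10 UMIs in the same clusters.

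The same opposition appeared for Rxfp2 over whole classes of clusters. Its mean level in AgRP-Gq;POMC-Gi minus that in control was 1.60 CPM in GABAergic and -0.479 CPM in glutamatergic clusters. Without clusters 55 and 83 the GABAergic values were 1.90 and 1.60 against 1.59 and 2.73 CPM, and without the nucleus with 13 UMIs the glutamatergic values were 0.755 and 0.285 against 0.570 and 0.436 CPM, and in both the groups overlapped.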

How the results depend on the processing

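With 2 libraries per group, single nuclei and libraries decide many values. None of the 15 tests of the relaxin family genes was called in any of 125 alternatives, the lowest adjusted p by edgeR being 0.115 for Rxfp2 in cluster 55. With no filter on genes, 2 pairs outside these 15 were called, Rln3 in cluster 67 (adjusted p = 0.00196) and Rxfp2 in cluster 68 (0.0219), each resting on 1 nucleus. Leaving out 1 library took the mean of Rxfp2 in cluster 55 from 12.9 to 3.92 CPM and that of Rln3 in cluster 67 from 15.2 to 0 CPM. Thinning nuclei to 2000 UMIs moved 12 of the 16 shares of nuclei with a UMI in the named clusters outside their intervals, for Rxfp1 in cluster 146 from 53.4% to 24.6%. Leaving out the neuron with most UMIs in each named cluster, chosen after seeing the data, moved the 16 mean levels by less than their SD between libraries. That of Rln3 in cluster 67 nevertheless went to 0 CPM and that of Rxfp2 in cluster 68 to 2.82 CPM. A nucleus that lifts 1 library also lifts the SD, so this yardstick cannot show that a level is free of single nuclei. Leaving out a library leaves 1 in its group, which is then assumed to vary like the others.

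The log2 fold change of Rxfp1 in cluster 146 turned to -0.073 without TMM factors and to -0.063 under edgeR's own count filter (filterByExpr). Leaving out 1 library turned the sign of 7 of the 15, with ranges of -0.61 to 1.47 for Rxfp1 in cluster 146, -0.26 to 1.06 in 151 and -5.92 to 3.96 in 140, of -1.04 to 0.93 for Rxfp2 in cluster 81, -1.86 to 1.31 in 119 and -0.76 to 5.77 in 125, and of -3.66 to 0.41 for Rxfp3 in cluster 119. For Rxfp1 in clusters 117 and 38, where the sign held, the ranges were 0.035 to 0.88 and -1.18 to -0.018. The cause was not tested.

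Genes called in all neurons numbered 0, against 10 with DESeq2, 1 without a filter on genes, 1 with filterByExpr and 3 to 2017 when 1 library was left out, the last without AgRP-Gq;POMC-Gi replicate 2. Over the named clusters the number was 64, against 2 with DESeq2, 144 without a filter, 7 with filterByExpr and 82 to 178 when 1 library was left out. With the replicate number as a block 169 genes were called in all neurons and 98 over the named clusters, and none of the 15 tests. The labels give the numbers no shared batch, and the correlation of deviations was 0.184 with 2 pairs. Choroid plexus nuclei numbered 2 and 6 in control and AgRP-Gq;POMC-Gi replicates 1, and 436 and 329 in their replicates 2. Whether libraries of the same number are paired was not tested.

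Thinning nuclei to 800 UMIs lowered the share of neurons with a UMI to 0.423% for Rxfp1, 0.120% for Rxfp2, 0.0558% for Rxfp3 and 0.00798% for Rln3. With a 10-fold class limit the GABAergic level of Rxfp1 was 1.20 CPM and that of Rxfp3 0.747 CPM. With all clusters admitted, 0 leading clusters of Rxfp3 were kept, since cluster 171 then led. The order also depends on the scale. By mean log-normalized counts, clusters 70 and 63 (0.119 and 0.114) stood above 105 and 140 (0.102 and 0.0788) for Rxfp1. On that scale cluster 151 (0.530) stood above 117 (0.478), and for Rxfp2 cluster 125 (0.154) above 119 (0.0934). Cluster 68 (0.0318) then stood below clusters 144, 118, 108, 102 and 57 (0.0355 to 0.0652), which had under 10 Rxfp2 UMIs each. For Rln3, cluster 116 (0.0276) stood above the named cluster 67 (0.0168). Group tests of the 4 genes outside neurons, and over all neurons with DESeq2, the block or no TMM factors, were not run, since none of the genes passed the filter and these alternatives were not repeated without it.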

Other observations

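In the 4842 barcodes that the authors left out, Rxfp1 had 22 and 6 UMIs in control against 15 and 28 for AgRP-Gq;POMC-Gi (2.90 and 0.778 against 2.33 and 3.63 CPM), so that the groups overlapped. Rxfp2 had 10, 11, 4 and 10 UMIs there, Rxfp3 5, 2, 1 and 3, and Rln3 had 1 in each AgRP-Gq;POMC-Gi replicate and none in control. The sense-intronic gene Gm26984 lies inside Rxfp1 at 79673367 to 79676876 of chromosome 3 and had 15 UMIs in 14 neurons, of which 11 also had an Rxfp1 UMI.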
